A study of Mus musculus with 5 samples.

Results

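The 10 genes described here encode contractile proteins of the heart muscle sarcomere: the troponin subunits Tnnt2, Tnni1 and Tnnc1, the myosin heavy chains Myh6 and Myh7, the myosin light chains Myl4 and Myl7, the actin Actc1, the actin cross-linker Actn2 and titin, Ttn. They were chosen by name, and every deposited peak whose summit lay in one of them or within 50 kb of either end was taken, for 2 transcription factors mapped by chromatin immunoprecipitation followed by sequencing (ChIP-seq). A summit is a position within a peak where the signal is locally highest. Each line of a list holds 1 summit and is counted here as a peak, though some lines share the same bounds. This gave 1 of the 1134 peaks of the Hand1 list and 7 of the 5703 peaks of the Foxf1 list. The table of mouse genes used (GRCm38.p6) holds all 10 among its 21887 protein-coding genes on named chromosomes.

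The cells were E14 mouse embryonic stem cells on a course towards cardiac cells. For Hand1 they carried an HA peptide tag knocked into the gene itself, and were taken at a stage labelled MES, after 48 h as embryoid bodies and 40 h of re-aggregation with VEGF, Activin A and BMP4. For Foxf1 they carried an inducible overexpression construct with the same tag, and were taken at a stage labelled CP, after a further 32 h as a monolayer with VEGF, basic FGF and FGF10. The inducer, and whether either line is a single clone, are not given in the sources used here. Both precipitations used a homemade antibody to HA. Factor, stage and way of expression differ together between the lists, so a difference between lists cannot be assigned to any of them. There was 1 peak list per factor, so no value below has a replicate error and no comparison was tested. The second Foxf1 library and the 2 input libraries were not analysed here. The lists hold no expression values, so the stage of the cells was not checked against marker genes.

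Striated muscle contracts when myosin heads on the thick filament pull on actin of the thin filament. Calcium binds troponin C, troponin I then releases its block on actin, and troponin T holds the complex to tropomyosin. Alpha-actinin anchors thin filaments at the Z disc, and titin spans from the Z disc to the middle of the sarcomere as a molecular spring. Many of these genes turn on early in the embryonic heart, where slow skeletal troponin I (Tnni1) and the atrial light chains (Myl4 and Myl7) are made alongside Tnnt2 and Actc1. Hand1 is a basic helix-loop-helix factor, a family that binds E-boxes (CANNTG), and Foxf1 is a forkhead factor of lateral and splanchnic mesoderm.

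Sequence could be read here only for promoters, in windows from 250 bases before to 50 bases after a transcription start (RefSeq, GRCm38.p6). The 10 genes had 13 such windows. The 250 bases before the first listed start are printed for Tnni1, the gene that holds the only Hand1 summit, and for Tnnt2, the only one of the 10 with a Foxf1 summit inside it. They are also printed for Ryr2, the calcium release channel of the heart, whose window lay wholly under a Foxf1 peak described below. Capitals mark E-boxes (CANNTG).
Tnni1 (chr1:135799171-135799420, plus strand): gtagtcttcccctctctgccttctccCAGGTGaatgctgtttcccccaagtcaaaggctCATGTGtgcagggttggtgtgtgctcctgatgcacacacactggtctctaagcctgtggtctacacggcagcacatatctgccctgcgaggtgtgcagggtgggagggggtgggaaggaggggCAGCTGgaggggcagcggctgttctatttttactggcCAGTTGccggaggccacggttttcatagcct
Tnnt2 (chr1:135836084-135836333, plus strand): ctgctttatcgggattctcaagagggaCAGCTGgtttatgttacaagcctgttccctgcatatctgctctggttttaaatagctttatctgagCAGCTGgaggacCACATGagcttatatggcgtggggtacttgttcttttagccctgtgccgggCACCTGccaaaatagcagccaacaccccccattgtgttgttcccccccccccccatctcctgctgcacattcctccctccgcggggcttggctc
Ryr2 (chr13:12106946-12107195, minus strand): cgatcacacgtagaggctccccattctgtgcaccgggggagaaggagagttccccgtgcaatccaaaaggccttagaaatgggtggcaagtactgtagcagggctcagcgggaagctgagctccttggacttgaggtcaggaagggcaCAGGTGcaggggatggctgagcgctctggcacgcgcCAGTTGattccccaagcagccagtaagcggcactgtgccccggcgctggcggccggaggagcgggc

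The only Hand1 summit near any of the 10 genes lay inside Tnni1, the slow skeletal troponin I gene, on chr1:135800598-135800870. It was 1.29 kb after the first listed start of the gene and 1.20 kb after the second, and so outside both promoter windows, while the gene's annotated span begins farther upstream. Of all protein-coding genes, 1.42% held a Hand1 summit. Whether it falls in an exon or an intron was not determined here, since the gene table gives no exons. The authors' fold enrichment at this summit was 5.25 and its −log10 q-value 6.08. Both are low for the list: 9.61% of Hand1 peaks had a lower fold and 14.4% a lower −log10 q-value, and the lowest −log10 q-value in the list was 5.01. The authors' values correspond to 18 precipitated fragments at the summit (95% exact Poisson interval 10.7 to 28.4, counting error only) against a control level of 2.62.

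The same summit is the one Hand1 site counted for Tnnt2, cardiac troponin T. Tnni1 (chr1:135783033-135810989) and Tnnt2 (chr1:135836315-135852268) are neighbours on the plus strand, 25.3 kb apart, with Lad1 between them. The Hand1 summit lay 35.6 kb upstream of Tnnt2. Besides Tnni1, Lad1 (17.9 kb) and Phlda3 (31.6 kb) were nearer to it than Tnnt2. So 2 of the 10 genes had a Hand1 summit within 50 kb, from 1 site, where 6.06% of all protein-coding genes had one. The other 8 genes had none.

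Foxf1 had 3 summits around the same gene pair. The first lay inside Tnnt2 (chr1:135847114-135847738), 11.0 kb after its first start. It was the only Foxf1 summit inside any of the 10 genes, where 11.0% of all protein-coding genes held one. It had a fold of 6.12, which 12.8% of Foxf1 peaks fell below, and a −log10 q-value of 10.3, close to the list's lowest of 10.0. It held 23 fragments (exact Poisson interval 14.6 to 34.5) against a control level of 2.92. It was also counted for Tnni1, since it lay 36.3 kb downstream of that gene. Lad1 (14.0 kb) and Pkp1 (24.1 kb) were nearer to it than Tnni1.

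The second, at chr1:135882187-135883083, lay 30.7 kb downstream of Tnnt2 and inside Pkp1, which encodes the desmosomal protein plakophilin 1. Its fold was 7.21 and its −log10 q-value 11.8.

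The third was the strongest of the 7 Foxf1 sites. It lay at chr1:135752921-135753599, 29.9 kb upstream of the annotated span of Tnni1 and 46.3 kb upstream of its first listed start, with a fold of 16.3 and a −log10 q-value of 58.9. Of the Foxf1 peaks, 97.9% had a lower fold, and it ranked 120 by fold. It held 67 fragments (exact Poisson interval 51.9 to 85.1) against a control level of 3.16. Csrp1 and Phlda3 were nearer to it than Tnni1: it was 0.905 kb past the end of Csrp1, which encodes a LIM-domain protein of smooth muscle, and 12.95 kb from the start of Phlda3.

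The Hand1 summit of this troponin pair was 46.6 kb from the Foxf1 summit in Tnnt2 and 47.6 kb from the one beside Csrp1, and no Hand1 peak overlapped any of the 7 Foxf1 peaks of the 10 genes. In the whole lists 3.24% of Foxf1 peaks overlapped a Hand1 peak and 17.6% of Hand1 peaks a Foxf1 peak. Tnnt2 and Tnni1 were the 2 genes with a summit in both lists, against 4.03% of all protein-coding genes.

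**Figure D1:**
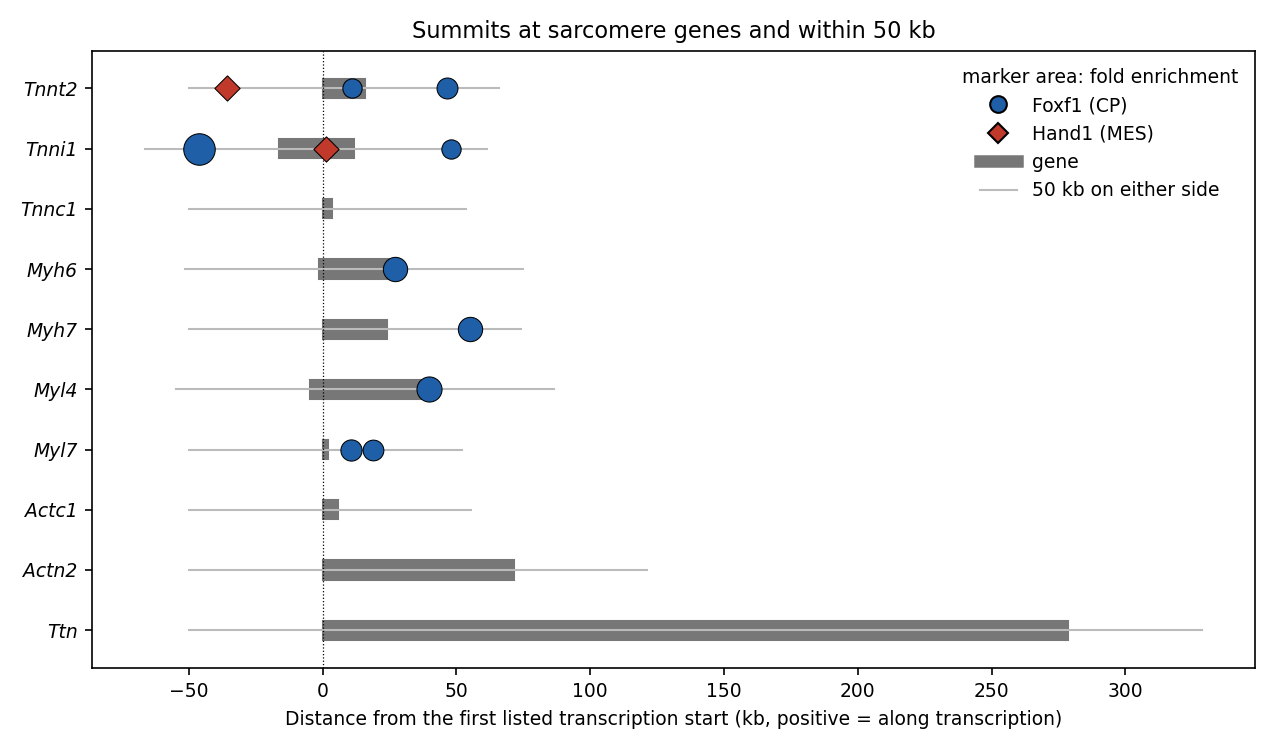
Summits of the Hand1 list (diamonds) and the Foxf1 list (circles) at each of the 10 genes, by distance in kb from the first listed transcription start and with marker area in proportion to the authors' fold enrichment. Thick bars are genes and thin lines the 50 kb on either side. The Hand1 summit appears in both Tnnt2 and Tnni1, Foxf1 summits lie past the downstream end of the gene in 7 of 9 pairs of gene and summit (41.8% over all protein-coding genes with a listed start), and Tnnc1, Actc1, Actn2 and Ttn have none.

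The third troponin subunit, the calcium sensor Tnnc1 (chr14:31208312-31211729), had no summit within 50 kb in either list. Its nearest Foxf1 summit lay just outside the window, at 60.7 kb, with a fold of 6.80 (chr14:31271922-31272630). This was the closest summit outside the window for any of the 10 genes, and the farthest one inside it was the 36.3 kb from Tnni1 to the summit in Tnnt2. The nearest Hand1 summit to Tnnc1 was 803 kb away.

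The myosin heavy chain genes Myh6, the alpha chain that dominates adult mouse ventricle, and Myh7, the beta chain of the fetal ventricle, lie 2.67 kb apart on the minus strand of chromosome 14 (54941921 to 54968017 and 54970684 to 54994626). They shared a single Foxf1 summit, at chr14:54939369-54940119. It lay past the downstream end of both, 2.34 kb from Myh6 and 31.1 kb from Myh7, and 27.0 kb from the Myh6 start. It was inside another gene, Cmtm5, 3.08 kb after its start. Il25, Efs and Slc22a17 were also nearer to it than Myh7. The fold was 9.71 and the −log10 q-value 21.9, and 79.9% of Foxf1 peaks had a lower fold. It held 33 fragments (exact Poisson interval 22.7 to 46.3) against a control level of 2.50. The nearest Hand1 summit was 424 kb from Myh6 and 453 kb from Myh7.

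Both light chain genes had Foxf1 summits downstream. Myl4, the atrial essential light chain (chr11:104546017-104587215), had 1, at chr11:104590123-104590572. It lay 3.10 kb past the end of the gene and 39.65 kb after its start, and Myl4 was the protein-coding gene nearest to it. Its fold was 10.4, above that of 84.7% of Foxf1 peaks, and its −log10 q-value 19.7, from 27 fragments (exact Poisson interval 17.8 to 39.3) against a control level of 1.70.

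Myl7, the atrial regulatory light chain (chr11:5896637-5898782, minus strand), had 2. The nearer, at chr11:5887347-5888305, was 8.53 kb downstream with a fold of 7.40. The farther, at chr11:5879558-5880413, was 16.5 kb downstream with a fold of 7.07. The latter lay nearer to Pold2, a subunit of DNA polymerase delta, 1.88 kb upstream of that gene's start. Aebp1, at 7.89 kb, was also nearer to it than Myl7. Each of the 2 summits held 19 fragments (exact Poisson interval 11.4 to 29.7). Their −log10 q-values of 10.9 and 10.3 were near the lowest of the list, and 10.4% and 3.86% of Foxf1 peaks had a lower one. The nearest Hand1 summits were 731 kb from Myl4 and 4969 kb from Myl7.

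Actc1, Actn2 and Ttn had no summit of either factor within 50 kb. Actc1, cardiac alpha-actin (chr2:114047282-114052875), was 239 kb from the nearest Foxf1 summit and 4581 kb from the nearest Hand1 summit. Actn2, sarcomeric alpha-actinin (chr13:12269426-12340732), was 162 kb and 1520.2 kb away. Ttn (chr2:76703980-76982557) is 279 kb long, the longest of the 10, and had no summit anywhere in it. Its nearest summits were 360 kb (Foxf1, fold 12.2) and 2810.3 kb (Hand1) away. Of the 990 protein-coding genes of at least 200 kb, 28.6% held a Foxf1 summit and 5.86% a Hand1 summit.

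The Foxf1 summit nearest to Actn2 lay at the start of Ryr2. The peak (chr13:12106762-12107531, fold 10.5, −log10 q-value 32.4) had its summit 28 bases before the Ryr2 start and covered all 300 bases of the promoter window. The forkhead core TGTTTA was not in that window on either strand, and 2 E-boxes were. Of all windows, 11.5% held TGTTTA and 69.0% an E-box. The peak extends beyond the window, and its other bases could not be read here. The Ryr2 window was the only one of 66 promoter windows of the further contractile and related genes described below (1.52%) that lay under a peak of either list. Of all windows, 4.85% lay under a Foxf1 peak.

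**Figure D2:**
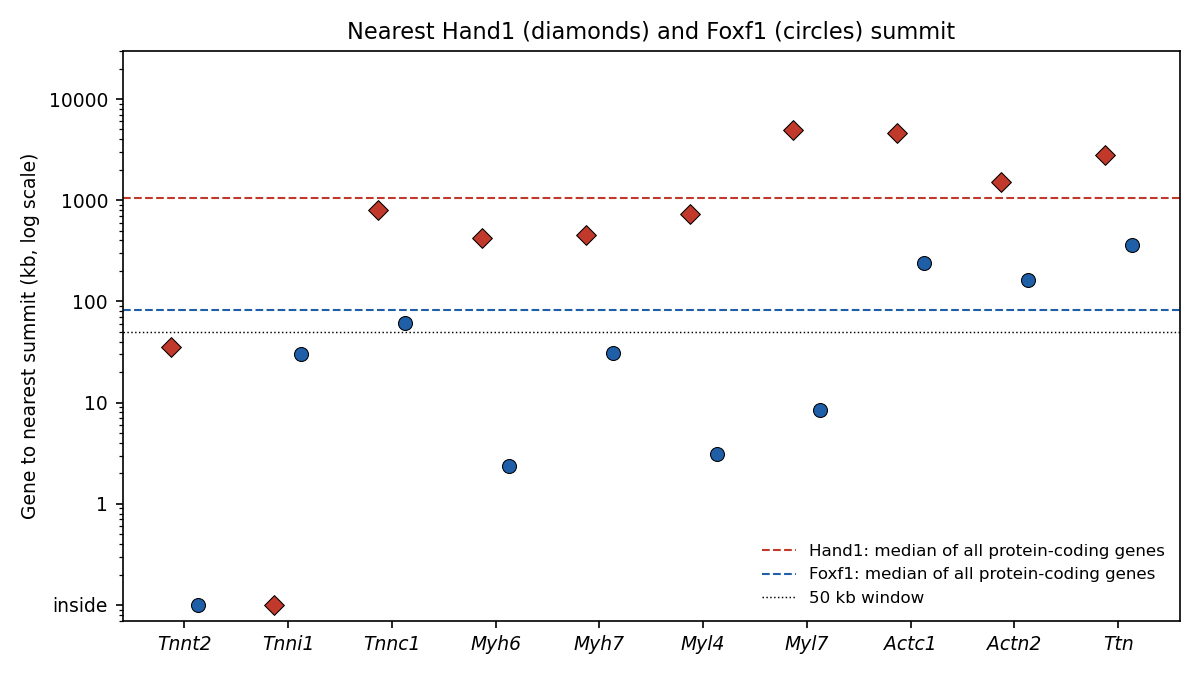
Distance in kb, on a log scale, from each gene to the nearest Hand1 summit (diamonds) and Foxf1 summit (circles), with a summit inside the gene drawn at the bottom. Dashed lines are the medians over 21887 protein-coding genes, 1040.3 kb for Hand1 and 82.7 kb for Foxf1, and the dotted line is the 50 kb window. The nearest Foxf1 summit was closer than the nearest Hand1 summit for every gene but Tnni1. The Foxf1 list is the longer, with 5703 peaks against 1134, and the share of all genes with this order was not counted.

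In all, 6 of the 10 genes had a Foxf1 summit within 50 kb (Tnnt2, Tnni1, Myh6, Myh7, Myl4 and Myl7), where 41.7% of all protein-coding genes did. With genes whose windows overlap joined, the 10 genes make 8 loci, of which 4 had a Foxf1 summit and 1 a Hand1 summit. The remaining 4 loci had neither factor. By gene it was 4 of the 10, against 56.2% of all protein-coding genes. No share of joined loci was counted over all genes, so the locus counts have no background. The 2 genes of at least 50 kb, Actn2 and Ttn, had no Foxf1 summit, against 42.6% with one among all genes of that length, and 6 of the 8 shorter genes had one against 41.5%. This split was made for Foxf1 only, the genes are few, and Myh6 and Myh7 share their summit. An effect of length was not tested. In wider windows the count for Foxf1 was 7 of 10 within 100 kb (53.3% of all protein-coding genes) and 8 of 10 within 200 kb (65.9%). For Hand1 it stayed at 2, where the shares of all genes were 9.9% and 16.6%.

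The windows of the 10 genes span 1.32 Mb and held 5.29 Foxf1 summits per Mb (95% exact Poisson interval 2.13 to 10.9, counting error only), and those of all protein-coding genes held 3.10 per Mb. For Hand1 the values were 0.755 per Mb (interval 0.0191 to 4.21) and 0.570 per Mb. Both intervals hold the value for all genes, which includes the 10. They treat summits as independent, though some lie together, as around Tnnt2 and Tnni1, so this is not a test. The median distance to the nearest Foxf1 summit was 30.5 kb over the 10 genes and 82.7 kb over all protein-coding genes. For Hand1 it was 767 kb against 1040.3 kb.

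Counted per gene, the 7 Foxf1 summits made 9 pairs of a gene and a summit: 7 past the downstream end of the gene, 1 upstream and 1 inside. Over all such pairs with protein-coding genes that have a listed start, 41.8% were downstream, 40.9% upstream and 17.3% inside. The 9 pairs are not independent, since the chromosome 14 summit counts for both Myh6 and Myh7 and the summit in Tnnt2 also for Tnni1.

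No promoter of the group was under a peak. No peak of either list overlapped any of the 13 promoter windows of the 10 genes, where 4.85% of all 21263 such windows of protein-coding genes had a Foxf1 peak and 0.536% a Hand1 peak. No Foxf1 summit was within 5 kb of any of the 13 starts, against 9.87% of all starts. So few windows and starts cannot set these absences apart from the shares of all. Only both starts of Tnni1 had a Hand1 summit within 2 kb, against 0.785% of all starts. This was the summit already described, 1.29 and 1.20 kb from them, so the count adds no further site. The limit was 2 kb for Hand1 and 5 kb for Foxf1, so the factors cannot be compared by these shares. Of the 8 distinct sites, 1 of Hand1 and 7 of Foxf1, 2 lay inside a gene of the group and 2 inside another gene. A gene of the group was the nearest protein-coding gene for 4. The shares of all peaks in such places were not counted, so these counts have no background. None of the 8 had a high control level, meaning at least 5 times the lowest in its list, as 11.7% of Hand1 and 3.61% of Foxf1 peaks had.

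**Figure D3:**
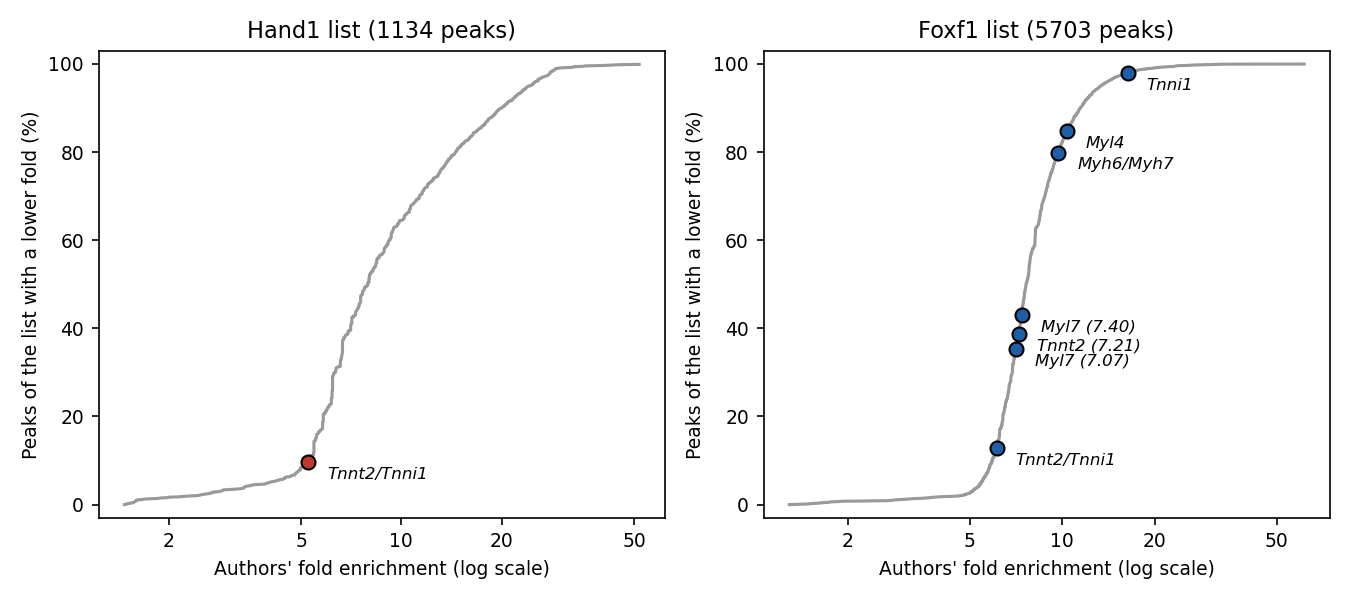
Share of each list (percent, y axis) with a lower fold than a given authors' fold enrichment (x axis, log scale), as a grey line, with the sites of the 10 genes as points named by the genes they were counted for. The Hand1 site stands low in its list, and the 7 Foxf1 sites run from a fold of 6.12 to one of 16.3, with 3 above the list's median of 7.62.

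The 7 Foxf1 sites had a median fold of 7.40, and the whole list one of 7.62. By fold, 4 sites ran from 6.12 to 7.40: the 2 counted for Tnnt2, the weaker of them also for Tnni1, and the 2 for Myl7. The other 3 ran from 9.71 to 16.3 (at Myh6 and Myh7, at Myl4, and upstream of Tnni1). These 3 stronger sites also had a −log10 q-value above the list's median of 15.4. Fold and q-value rest on the same fragments and control level, so this is not separate evidence. The single Hand1 site was below the Hand1 median of 7.92.

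Motifs were counted in the 13 promoter windows of 300 bases, on both strands. An E-box (CANNTG) was in 12 of the 13 windows, all but that of Myl4, and in 69.0% of all 21263. Its CATCTG form was in 1, that of Tnnc1, and in 14.6% of all. The forkhead core TGTTTA was in 1, the window of the second Tnni1 start, and in 11.5% of all. The TATAAA box was in the windows of Myh6 and Actc1, and in 12.6% of all. A CArG box, the site of serum response factor, was in the windows of Myl7 and Actc1 and in 1.52% of all, and a MEF2 site was in that of Ttn and in 0.489% of all. The motifs CATCTG and CANNTG overlap by construction. These are matches of letters in a window that no peak overlapped.

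A further 7 lists of contractile and related genes, 73 genes in all, were set beside the 10. Within 50 kb, 34 of the 73 (46.6%) had a Foxf1 summit, against 41.7% of all protein-coding genes. A Hand1 summit was within 50 kb of 6 (8.22%), against 6.06%. The 2 skeletal isoforms among these 6 were counted for the same Hand1 peak. For Foxf1 this was 5 of 8 thick filament genes, 4 of 12 thin filament genes, 9 of 17 Z disc genes, 3 of 6 assembly factors, 6 of 14 skeletal isoforms, 4 of 10 calcium handling genes and 3 of 6 smooth muscle genes. The share was 33.3% for the thin filament and 62.5% for the thick filament, on either side of the 41.7% of all protein-coding genes. The thick filament count includes Myom1, which holds M-band filaments together. Its 1 summit in each list, 39.6 kb away, had a high control level (33.3 in the Foxf1 list and 30.5 in the Hand1 list). Without peaks of high control level the thick filament count was 4 of 8 for Foxf1 (50.0%), below the 52.9% of the Z disc list. For Hand1 it went from 1 of 8 to 0 of 8. Over the 73 genes the counts were then 33 for Foxf1 (45.2%) and 5 for Hand1 (6.85%). The shares of all protein-coding genes were not recounted in this way.

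No Hand1 summit lay inside or within 10 kb of any of the 73 genes, where 2.8% of all protein-coding genes had one within 10 kb. The summit in Tnni1 was thus the only Hand1 summit inside any of the 83 genes. Of all protein-coding genes, 1.42% held one, and 1 gene of 83 is close to that share.

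**Figure D4:**
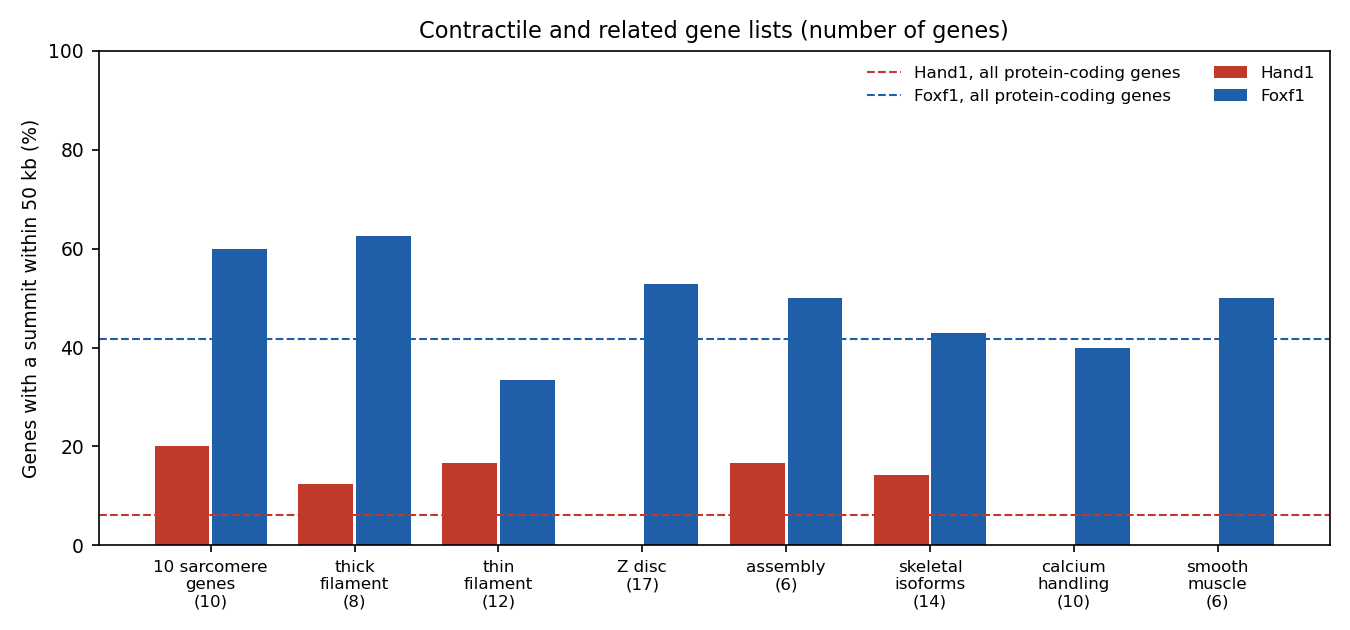
Percentage of genes in each list with a Hand1 or Foxf1 summit within 50 kb, with the number of genes in brackets, and dashed lines for all protein-coding genes (6.06% and 41.7%). Foxf1 bars lie on both sides of their line, and the Z disc, calcium handling and smooth muscle lists have no Hand1 summit.

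Within 10 kb, 21 of the 73 genes (28.8%) had a Foxf1 summit, against 22.7% of all protein-coding genes and 4 of the 10 (Tnnt2, Myh6, Myl4 and Myl7). Mybpc3, cardiac myosin binding protein C, had a summit 2.90 kb upstream of its start (chr2:91115035-91115485, fold 20.6). Cnn1, smooth muscle calponin, had one 3.04 kb upstream of its start (fold 10.7), and Ryr2 had the peak at its start described above.

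Myl2, the ventricular counterpart of Myl7, had summits on both sides, 3.62 kb upstream of its start (fold 8.74) and 0.947 kb past its end (fold 7.84). Jph2, which holds the calcium release channel close to the surface membrane, had one 3.43 kb upstream of its start (fold 8.43). Tnni3, the adult cardiac troponin I, had summits 3.94 kb upstream of its start (fold 8.05) and, inside the adjacent Tnnt1, 8.20 kb and 4.89 kb past its end (folds 7.40 and 6.88). The other genes named by fold were Tnni2 (8.72), Mybphl (8.18), Ldb3 (7.84) and Unc45b (7.61).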

How the data were processed

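Peak lists of 2 libraries, 1 per factor, were used; the Foxf1 list belongs to the library labelled replicate 1. Per the submitters' processing notes the tools were Trim Galore 0.6.6, Bowtie2 2.3.4.3, SAMtools 1.9, deepTools 3.5.0 and MACS2 2.2.7.1, and the build mm10, with no role or order given. The control, filters and any pooling are not given in the sources used here. Per the labels' protocols, cross-linking used 1% formaldehyde, and sonication gave fragments of 200 to 800 bp. The deposited fold enrichment is a linear ratio, the deposited −log10 p-value and −log10 q-value belong to the summit, and the deposited score is 10 times the −log10 p-value. All are the authors' values for a single peak, used to describe or rank it within its list. The limits of the lists differ, at a −log10 q-value of 5.01 for Hand1 and 10.0 for Foxf1.

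Library depth is not given. Fragments at a summit (k) and the control level (λ) were solved from fold = (k + 1)/(λ + 1) and the upper Poisson tail beyond k at mean λ, and are inferred. A whole k matching the deposited −log10 p-value within 0.01 was found for all 1134 Hand1 peaks and for 5701 of the 5703 Foxf1 peaks. The solver was tested on simulated data. Distances run from the summit to the gene or to the starts of the RefSeq promoter table (GRCm38.p6, the same assembly as mm10). Coordinates are 1-based. Named genes are the 10, neighbours that hold or lie nearer to a summit, and, of the 73 other genes, the 12 of highest fold within 10 kb, of which 1 is not reported here. The genes and lists were chosen with earlier results of these data known. Python 3.11.15 with pandas 2.3.3 was used.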

Additional observations from a re-analysis of the deposited data

How the results depend on the processing

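Of 61 values under 9 alternatives for 7 results, 42 stayed within 1.5 times the reported value, among them every median fold, and 19 did not. With a window of 10 kb, 1 gene had a Hand1 summit, none (0) had both factors, and 4 Foxf1 summits remained in reach; with 100 kb there were 11 Foxf1 summits. Counting only summits inside a gene left 1 Foxf1 summit in 1 gene, 1 gene with a Hand1 summit and 0 with both. Holding both lists to a −log10 q-value of 10 left 0 Hand1 summits, 0 genes with one and 0 with both, since the Hand1 site is below that limit. A fold of at least 8 left 3 Foxf1 summits, 0 Hand1 summits, 0 genes with a Hand1 summit and 0 with both. When a summit counted only for the nearest protein-coding gene, 3 Foxf1 summits in reach of 3 genes and 1 gene with a Hand1 summit were left, and 0 with both. Using any base of the peak, merging lines, or, chosen after seeing the data, leaving out high control levels moved no count by more than 1.5 times. The 2 median folds with no Hand1 site could not be given. No paired analysis was possible because each factor had a single list, and no replicate could be left out.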
